A study of Homo sapiens with 8 samples.

Results

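Expression of 6 genes of nuclear factor kappa B (NF-kB) signalling was examined in SK-BR-3 cells that lack the microRNAs mir-141, mir-200c or both. The genes are TNF, CD40 and TRAF6, which act upstream of NF-kB, and TNFAIP3, ICAM1 and LCN2, which are induced by it. They were found by symbol and make up 6 of the 9245 rows of the deposited table. The genes were selected on their ratios in experimental set 1, with the averages over both sets also known, so these values are a description and carry no test.

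The line SK-BR-3 derives from a human breast carcinoma and carries amplified ERBB2. The microRNA genes had been disrupted with TALENs, designed nuclease pairs that cut a chosen DNA sequence. The study measured how mRNA levels differ once the microRNAs are gone. Its 8 libraries came from 4 genotypes, with 1 library of each in set 1 and 1 in set 2: the wild type, cells without mir-141, cells without mir-200c and cells without both. Every knockout library was a separate clone. In set 1 clone 23 lacked mir-141, clone 11 lacked mir-200c and clone 55 lacked both, and in set 2 these were clones 10, 29 and 61. Where 3 values are given for a gene they follow this order. A genotype was therefore 1 clone in each set, and clone, set and genotype cannot be told apart within a set. The labels name no treatment, so all values refer to cells without a stated NF-kB stimulus. The measurement is the log2 ratio of a clone to its own set's wild type, in which 1 is a 2-fold higher level. Depth and absolute levels are unknown. In such bulk RNA, fewer cells that express a gene and less RNA per cell cannot be told apart.

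NF-kB transcription factors are held in the cytoplasm by inhibitor proteins until a receptor recruits adaptor proteins and ubiquitin ligases. Such receptors include CD40, which uses the ligase TRAF6, and the receptor for the cytokine TNF. The adaptors and ligases activate the IKK kinase complex, which marks the inhibitors for degradation and lets NF-kB enter the nucleus. Its targets include inflammatory effectors, such as the leukocyte adhesion molecule ICAM1 and the iron-sequestering lipocalin LCN2, and feedback inhibitors, such as the ubiquitin-editing enzyme TNFAIP3 (A20). Mir-141 and mir-200c belong to the mir-200 family, whose members repress inducers of the mesenchymal state in epithelial cells.

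The mature microRNAs are shown because a base difference in the seed gives them separate sets of target sites. Capitals mark the seed, bases 2 to 8 from the 5′ end (RefSeq, GRCh38.p14, chromosome 12, plus strand, 6964155 to 6964176 for mir-141 and 6963742 to 6963764 for mir-200c). The seeds differ at 1 base.
hsa-miR-141-3p: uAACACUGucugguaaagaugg
hsa-miR-200c-3p: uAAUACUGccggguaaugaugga

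Of the 6 genes, 3 held a site for either seed in the 3′ UTR of the listed transcript, read from GENCODE release 29 on GRCh38. A site was a match to bases 2 to 8 (CAGTGTT for mir-141, CAGTATT for mir-200c), or to bases 2 to 7 followed by an A (AGTGTTA and AGTATTA). The sites are shown in the sense of the mRNA, with the match in capitals. ICAM1 had 1 site of mir-141 (chr19:10286131-10286155, plus strand). TNFAIP3 had 2 sites of mir-141 (chr6:137882364-137882388 and chr6:137883059-137883083, plus strand). TRAF6 had 1 site of mir-200c, of the kind that ends in A (chr11:36489440-36489464, minus strand).
ICAM1: acatacatttctgcCAGTGTTcaca
TNFAIP3, first site: tggggaaaatgccaCAGTGTTctcc
TNFAIP3, second site: taccaaataaacttCAGTGTTttca
TRAF6: ttcagtctttttgtAGTATTAtatg

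Neither seed was matched in the 3′ UTRs of CD40, TNF and LCN2, which were 983, 799 and 152 bases long. Those of ICAM1, TNFAIP3 and TRAF6 were 1328, 1992 and 2811 bases long, and the median over 9011 matched entries was 996. Of those entries, 22.5% held a site of mir-141, 21.4% a site of mir-200c and 34.5% a site of either. A match is a sequence feature, not a measured target.

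Promoter windows from 250 bases before to 50 after the start were read from RefSeq for 5 of the 6 genes. CD40 had no entry. The windows are shown because some match the degenerate consensus of the kB element, the sequence to which NF-kB binds, and others do not. The consensus was searched on both strands. A window without a match does not show that the gene lacks a kB element. The consensus was found in TNFAIP3, at 67 and 55 bases before the start, and in LCN2, at 175 bases before it. Distances are from the RefSeq start, and for TNFAIP3, LCN2 and ICAM1 the GENCODE gene given below begins further upstream, so that these matches lie inside it. All 3 matches lay on the opposite strand and are written on the gene's strand (chr6:137867182-137867211, chr6:137867194-137867223 and chr9:128149268-128149297, plus strand, GRCh38.p14), with the match in capitals. Of 27305 promoters, 5.72% held the consensus, and of the 7110 promoters of measured genes 6.51% did.
TNFAIP3, distal match: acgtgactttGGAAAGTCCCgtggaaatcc
TNFAIP3, proximal match: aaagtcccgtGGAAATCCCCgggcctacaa
LCN2: cagcactccgGGAATGTCCCtcactctccc

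ICAM1 lacked the consensus in this window but held the looser pattern GGAANNNCC at 186 bases before the start (chr19:10270924-10270952, plus strand). This pattern was searched on both strands, overlaps all 3 consensus matches above and contains the GGAA core of ETS factors. It was present in 20.1% of promoters and in 23.7% of those of measured genes. Neither pattern was found in the windows of TNF and TRAF6.
ICAM1: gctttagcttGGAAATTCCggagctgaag

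The sets have to be read apart. Across the 9245 rows, the 9 pairs of a set 1 clone with a set 2 clone had Pearson correlations between -0.0022 and 0.0105, whereas clones within set 1, which share a wild type, correlated at 0.502 to 0.709. Genes are not independent replicates, so these values describe the libraries. Set 2 values are given as listed beside each gene name. Whether every row holds the same gene in both sets was not tested, and this bears on each average over both sets. The SD of a column across rows lay between 0.31 and 0.46. Column medians lay between -0.03 and -0.01. Of 10 epithelial markers of this line 9 were measured, and 3, 7 and 4 of them lay above 0 in clones 23, 11 and 55, with medians of -0.03, 0.16 and -0.01 and spans of -0.18 to 0.37, -0.14 to 0.31 and -0.24 to 0.21. Among them ERBB2 had ratios of -0.18, -0.14 and -0.14 and EPCAM of 0.08, 0.06 and -0.05 in clones 23, 11 and 55. The ratios do not tell how strongly any marker is expressed. Of 16 leukocyte markers 3 were measured (CD68, CORO1A and LCP1), and they spanned -0.13 to 0.52, -0.54 to 1.05 and -0.48 to 0.40 in clones 23, 11 and 55. Of 14 fibroblast and endothelial markers 4 were measured (COL1A1, COL5A1, COL5A2 and CDH5), with spans of -0.29 to 0.91, -0.41 to 1.29 and -0.15 to 1.34 and medians of 0.00, 0.71 and 0.60. The remaining leukocyte, fibroblast and endothelial markers had no row under their symbols in the deposited table and could not be analysed. The part of any of these markers in the results below was not tested.

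The upstream genes had 3 unlike patterns in set 1. TRAF6, the ubiquitin ligase that links interleukin-1, Toll-like and CD40 receptors to IKK (NM_004620; chromosome 11, 36487027 to 36510272), had log2 ratios of 1.88, 2.07 and 1.93 in clones 23, 11 and 55. All 3 clones were alike and about 3.68 to 4.20 times the wild type. The lowest of these ratios was the 5th highest such minimum of all rows, and 26 rows (0.281%) lay at or above 1 in all 3 clones. In set 2 TRAF6 was listed at 0.09, -0.07 and -0.16, near the wild type of that set.

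CD40, a receptor of the TNF receptor superfamily (NM_152854, 1 of several CD40 transcripts; chromosome 20, 46118272 to 46129863), had -1.44 without mir-141, 1.01 without mir-200c and -0.10 without both in set 1. The single knockouts thus lay on opposite sides of the wild type, 2.45 apart, and the double knockout lay close to it. The mir-141 knockout value was the 25th lowest of all rows in that clone. In set 2 CD40 was listed at 0.08, 0.09 and -0.05.

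TNF, the cytokine that gives its name to the superfamily (NM_000594; chromosome 6, 31575567 to 31578336), had 0.46, 1.00 and 0.81 in set 1. All 3 clones were above the wild type, the mir-200c knockout most. In set 2 it was listed at -0.18, -0.05 and -0.12, below the wild type in every clone.

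In set 1 each induced gene had its highest value in a clone without mir-200c, as did each upstream gene. Clones 11 and 55 both lack mir-200c, so most clones of set 1 meet this description. The share of all rows that do so was not computed. The genes were selected on these ratios, so nothing follows from it. In set 2, as listed, LCN2 and ICAM1 were lowest in the mir-200c knockout and TNFAIP3 was highest there. LCN2 (NM_005564; chromosome 9, 128149071 to 128153455) had 0.64, 1.53 and 2.48 in clones 23, 11 and 55. It was above the wild type in all 3 clones and stood 7th of all rows in the double knockout, at 5.60 times the wild type. In set 2 it was listed at -0.21, -0.27 and -0.23. LCN2 and TNF thus lay above the wild type in all clones of set 1 and below it in all of set 2, as did 8.16% of rows.

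ICAM1, the ligand of leukocyte integrins (NM_000201; chromosome 19, 10270835 to 10286615), had 0.12, 0.20 and 1.26 in set 1. Both single knockouts were near the wild type and the double knockout was 2.40 times as high. In set 2 it was listed at 0.13, 0.05 and 0.18, so it was the member with positive values in all 6 clones, most of them small, beside 6.65% of rows. None of the 6 genes was negative in all 6 clones, beside 10.4% of rows.

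TNFAIP3 (NM_006290; chromosome 6, 137867188 to 137883312) had -0.18, 0.75 and 0.52 in set 1. Both clones without mir-200c were above the wild type and the mir-141 knockout was slightly below. In set 2 it was listed at -0.74, -0.42 and -0.42, the lowest values of any member in that set.

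Counted at a log2 ratio of 1, the mir-141 knockout of set 1 had 1 of the 6 genes at or above 1 (TRAF6) and 1 at or below -1 (CD40), beside 0.584% and 0.562% of all rows. The mir-200c knockout had 3 at or above 1 (TRAF6, LCN2 and CD40) beside 1.7% of rows and 0 at or below -1 beside 1.06%. The double knockout had 3 at or above (LCN2, TRAF6 and ICAM1) beside 1.53% and 0 at or below beside 0.746%. The genes were chosen for such values, so nothing follows from these counts. CD40 at 1.01 and TNF at 0.999 in the mir-200c knockout lay on either side of the threshold. In set 2, 0 of the 6 genes lay at or beyond 1 in either direction in any clone, beside 1.51%, 0.973% and 2.42% of rows at or above and 0.963%, 0.8% and 0.919% at or below in clones 10, 29 and 61.

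**Figure D1:**
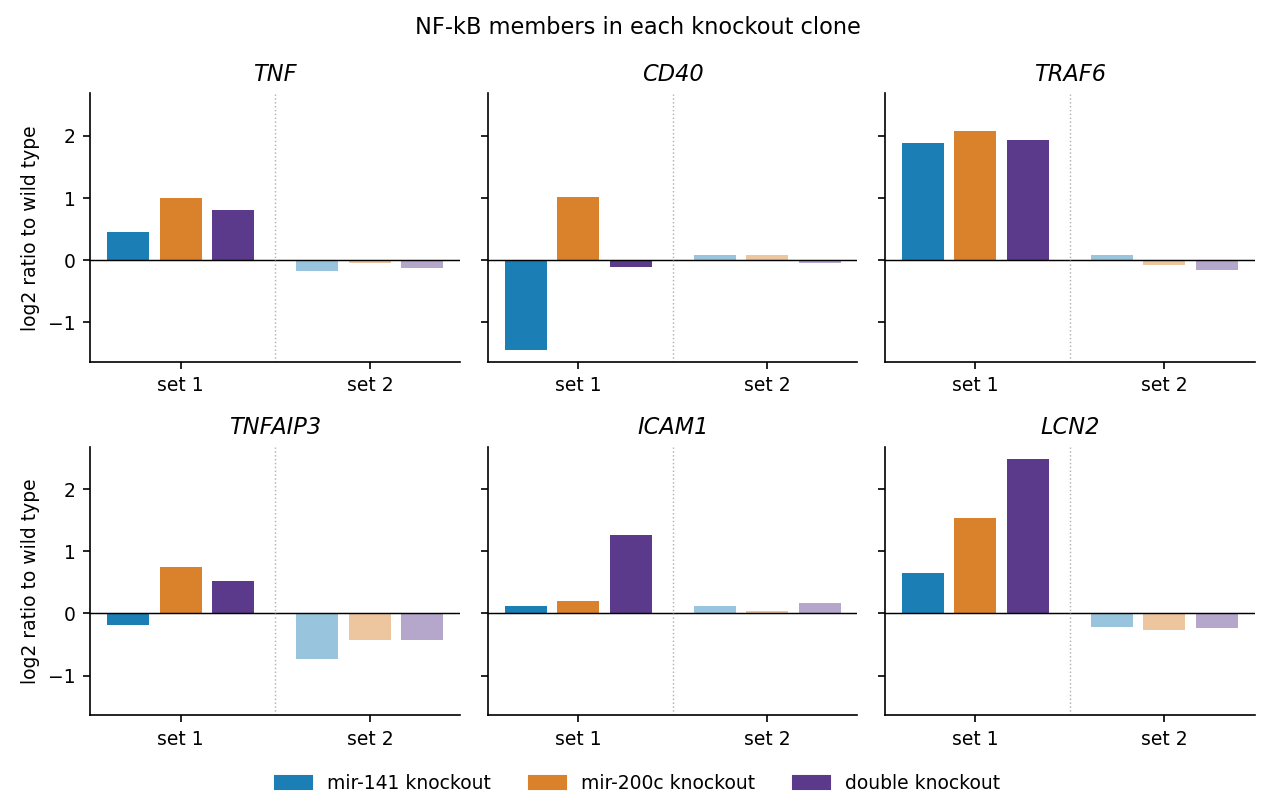
Log2 ratio to the set's own wild type (vertical axis) for each of the 6 genes, with 1 bar per knockout clone and set 1 to the left of set 2. In set 1 TRAF6 is even at 1.88 to 2.07, CD40 spans -1.44 to 1.01 and LCN2 reaches 2.48, whereas the set 2 bars stay between -0.74 and 0.18.

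Within set 1 the 4 genotypes allow each loss to be read in both backgrounds. Loss of mir-200c is the mir-200c knockout against the wild type where mir-141 is present, and the double against the mir-141 knockout where it is absent. These differences use 4 separate libraries, with 1 library each, so they can be compared as values but not tested. Across all rows they had a Pearson correlation of 0.340, and those for loss of mir-141 of 0.181, as a description.

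LCN2 was higher after loss of mir-200c in both backgrounds, by 1.53 and 1.84. When rows are ranked by the smaller of both differences, it was 4th of 9245. CD40 was higher by 1.01 and 1.34, the 15th in the same ranking, and only 15 rows (0.162%) reached 1 in both backgrounds. TNFAIP3 was higher by 0.75 and 0.70. The difference without mir-141 minus that with it was 0.31 for LCN2, 0.32 for CD40 and -0.05 for TNFAIP3. The median absolute size of this quantity over all rows was 0.216.

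TRAF6, TNF and ICAM1 differed more between the backgrounds. TRAF6 was 2.07 above the wild type in clone 11, but clone 55 was only 0.05 above clone 23. Its offset is thus between the wild type library of set 1 and all 3 clones, and a low value in that wild type cannot be told apart from a high one in the clones. TNF had 1.00 and 0.35. ICAM1 had 0.20 where mir-141 was present and 1.15 where it was absent.

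Loss of mir-141 gave CD40 values of -1.44 with mir-200c present and -1.11 with it absent, the 10th lowest of all rows by the weaker difference, and 11 rows (0.119%) reached -1 in both. Of the 9245 rows, CD40 was the 1 at or beyond 1 upward for loss of mir-200c and downward for loss of mir-141 in both backgrounds. LCN2 had 0.64 and 0.96, ICAM1 0.12 and 1.06, TNFAIP3 -0.18 and -0.23, TNF 0.46 and -0.19 and TRAF6 1.88 and -0.14. The genes with seed sites can be read from these values: ICAM1, with a mir-141 site, was 1.06 higher without mir-141 where mir-200c was also missing and 0.12 higher where it was present. TNFAIP3, with 2 mir-141 sites, was lower without mir-141 in both backgrounds. TRAF6, with a mir-200c site, had 2.07 against the wild type and 0.05 where mir-141 was also missing.

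If the losses added up, the double knockout would equal the sum of both single knockouts. TNFAIP3 deviated from that sum by -0.05, LCN2 by 0.31 and CD40 by 0.32, beside a median absolute deviation of 0.216 over all rows. Sizes at least as large were reached by 86.8%, 34.9% and 33.5% of rows. ICAM1 was 0.95 above its sum, a size reached by 3.25% of rows. TNF deviated by -0.65, a size reached by 8.94%, and TRAF6 by -2.03, reached by 0.389%. A wild type value shared by both single knockouts enters these deviations.

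**Figure D2:**
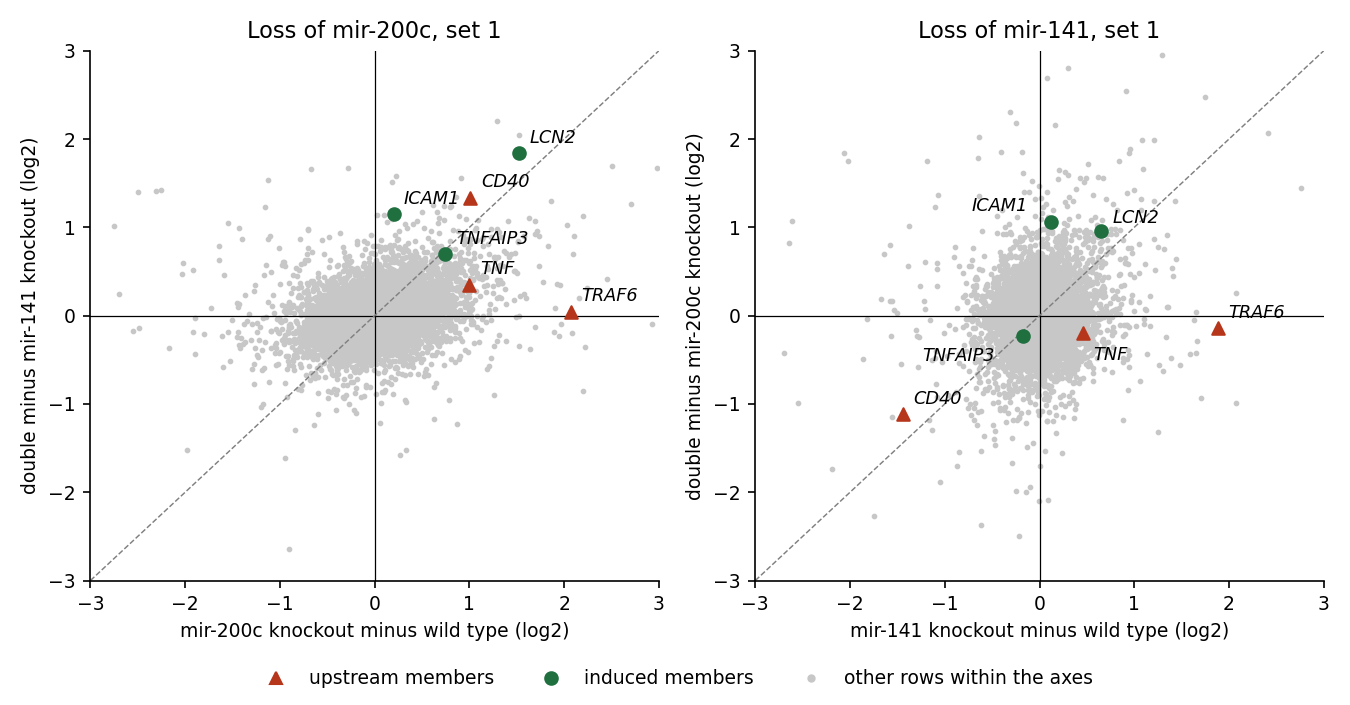
Log2 differences in set 1 for loss of mir-200c (left) and of mir-141 (right), with the other microRNA present on the horizontal axis and absent on the vertical axis, and with the equal line dashed. Triangles are upstream genes, circles induced genes and grey points other rows within the axes. On the left TNFAIP3 lies near the equal line, with LCN2 and CD40 somewhat above it. TRAF6 lies near the horizontal axis in both panels, and CD40 changes side from 1.01 and 1.34 to -1.44 and -1.11.

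Upstream and induced genes did not form separate groups in these clones. The grouping is by role, and whether an upstream gene is itself induced by NF-kB was not tested. The upstream genes had medians of 0.46, 1.01 and 0.81 in clones 23, 11 and 55, and the induced genes 0.12, 0.75 and 1.26. With 3 genes on each side the ranges overlapped in every clone: in the double knockout the upstream genes spanned -0.10 to 1.93 and the induced genes 0.52 to 2.48. The clone with the highest value differed: LCN2 and ICAM1 were highest in clone 55, whereas TNF, CD40, TRAF6 and TNFAIP3 were highest in clone 11. In set 2 the medians were 0.08, -0.05 and -0.12 for the upstream genes and -0.21, -0.27 and -0.23 for the induced genes.

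The rows nearest to each gene over the 3 clones of set 1, by Euclidean distance, were listed as a description. TNFAIP3 was nearest to ATHL1 (distance 0.0346) and to VEGFC (0.0728), which encodes a lymphatic growth factor. TNF was nearest to BBC3, a pro-apoptotic BCL2 family gene (0.0857), and to UST (0.104). ICAM1 was nearest to the transporter gene ABCC3 (0.152) and the protease gene TMPRSS4 (0.208). TRAF6 was nearest to USP35 (0.238) and TMF1 (0.270). LCN2 and CD40 had no close neighbours: theirs were CYP4B1 (0.635) and PTRF (0.724), and CST6 (0.821) and FOLR1 (0.855).

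Over both sets, a limma model of all rows called 0 genes at a Benjamini-Hochberg adjusted p under 0.05 (0% of rows) in each of 6 comparisons. At an unadjusted p under 0.05 the 6 genes numbered 0 without mir-141, 0 without mir-200c and 1 without both, beside 248, 499 and 581 of all rows (2.68%, 5.4% and 6.28%). They numbered 0 for loss of mir-141, loss of mir-200c and the interaction, beside 476, 821 and 157 rows (5.15%, 8.88% and 1.7%). The 1 gene was ICAM1, at 0.72 ± 0.28 (mean of 2 clones ± SE of the fit; limma adjusted p = 0.74). In the same comparison LCN2 had 1.13 ± 0.56, TRAF6 0.88 ± 0.49, TNF 0.34 ± 0.26, TNFAIP3 0.05 ± 0.27 and CD40 -0.08 ± 0.49. For loss of mir-200c, LCN2 had 0.77 ± 0.38 and CD40 0.58 ± 0.33, with limma adjusted p of 0.587 and 0.612. These errors rest on how a genotype's differences vary between the sets, moderated over all rows. For each loss over both backgrounds they also rest on deviations from the sum of both losses.

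The rest of the pathway was read from 5 lists ordered by role, of which 88 genes were measured, the 6 genes included. The lists were chosen with earlier results of these data known. Their counts are therefore a description, also without the 6 genes. In set 1, loss of mir-200c gave a difference above 0 in both backgrounds for 52 of 88 genes, beside 28.9% of all rows. Without the 6 genes it was 46 of 82, or 56.1%. The double against the mir-141 knockout, each 1 clone, does not involve the wild type. It gave 59 of those 82 above 0 (72.0%, median 0.15) beside 46.7% of rows (median -0.02). For the mir-141 knockout against the wild type it was 42 of 82 (51.2%) beside 48.1%. In set 2 as listed, 37, 37 and 33 of the 88 genes lay above 0 in clones 10, 29 and 61, with medians of -0.07, -0.06 and -0.09, beside 45.8%, 47.9% and 45.9% of rows. Most of these differences were small: 9 of the 88 genes reached 0.5 in both backgrounds for loss of mir-200c, beside 1.89% of rows, and 6 of 82 (7.32%) without the 6 genes, which were selected on these ratios. The 9 were LCN2, CD40, TNFAIP3, CX3CL1, SAA1, GADD45B, VEGFC, CYLD and FAM105B.

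Of ligands and receptors, 15 of 35 were measured. Above 0 were 8, 10 and 11 of them in clones 23, 11 and 55, beside 48.1%, 48% and 46.3% of rows. TNFRSF18, the co-stimulatory receptor GITR, had -1.58, -2.56 and -1.76, below the wild type in all 3 clones and opposite to TRAF6. TNFRSF10B, a receptor of the death ligand TRAIL, had -0.80, -0.19 and -0.52. IL1R1, the interleukin-1 receptor that signals through TRAF6, had -0.08, -0.62 and -0.54. RELT had 0.28, -0.02 and 0.41 and TNFRSF12A, the receptor of TWEAK, 0.17, 0.40 and 0.37.

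Of adaptors and ubiquitin ligases, 26 of 29 were measured, and 13, 17 and 19 were above 0, beside 48.1%, 48% and 46.3% of rows. Other TRAF genes, named here after their values were seen, lay near 0: TRAF2 had -0.04, 0.23 and 0.03, TRAF3 -0.05, 0.03 and 0.18 and TRAF4 0.05, 0.12 and 0.23. Beside TRAF6, MALT1, the protease of the CARD-BCL10-MALT1 complex, reached 1, with 1.05, 0.44 and 1.25. TRADD, the adaptor of the TNF receptor, had 0.18, 0.63 and -0.03, RIPK2, the kinase of NOD receptors, -0.12, 0.51 and -0.10, and TIRAP, an adaptor of Toll-like receptors, -0.10, 0.50 and -0.23. All 3 had their highest set 1 value in clone 11. TAB1, a partner of the kinase TAK1, had -0.24, -0.47 and -0.52.

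The IKK complex and the NF-kB subunits had 9 of 11 genes measured and small values, none at or beyond 1 in set 1. Above 0 in set 1 were 2, 8 and 5, beside 48.1%, 48% and 46.3% of rows. IKBKE had -0.16, 0.53 and 0.01. CHUK, the catalytic subunit IKK alpha, had -0.18, -0.44 and -0.03. The precursor genes of the subunits p52 and p50, NFKB2 and NFKB1, had -0.06, 0.33 and 0.26, and 0.00, 0.32 and 0.03. IKBKG (NEMO), which has a near-identical pseudogene copy and is uncertain, had -0.14, 0.29 and -0.04. In set 2 as listed, 1 gene passed -1, the kinase TBK1 at -1.16 in clone 29, named here after its value was seen.

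Of inhibitors and feedback genes, 19 of 22 were measured, and 12, 16 and 13 were above 0, beside 48.1%, 48% and 46.3% of rows. FAM105B, now named OTULIN, which removes linear ubiquitin chains, had 0.34, 1.35 and 0.91, and CYLD, another deubiquitinase, had 0.08, 0.76 and 0.70. TNIP1, which binds TNFAIP3, had 0.08, 0.65 and 0.30, and TRAFD1 0.10, 0.59 and -0.08. ITCH, a ubiquitin ligase that works with TNFAIP3, had -0.19, -0.61 and -0.09. In set 2 as listed, 4, 5 and 5 of the 19 were above 0, beside 45.8%, 47.9% and 45.9% of rows.

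Of induced outputs, 19 of 48 symbols were measured, and 11, 13 and 17 were above 0, beside 48.1%, 48% and 46.3% of rows. Their medians were 0.06, 0.36 and 0.45 beside -0.01, -0.02 and -0.03 over all rows. LCN2 and ICAM1, selected on these ratios, are among the 19. CX3CL1, the membrane-bound chemokine fractalkine, had 0.31, 1.49 and 0.82. CCL2, which attracts monocytes, had 0.57, 0.97 and 0.95. GADD45B, a stress response gene, had 0.08, 1.01 and 0.70, and VEGFC -0.16, 0.74 and 0.45. SAA1, an acute phase protein gene with a near-identical neighbour and so uncertain, had -0.19, 0.80 and 1.04. These 5 genes were named for the size of their ratios, and other outputs, named here after their values were seen, lay lower in clone 11 than in clone 23. S100A8 and S100A9, which encode the subunits of calprotectin, had 0.35, -0.65 and 0.65, and 0.34, -0.68 and 0.23. IER3 had 0.31, -0.49 and 0.61 and TNFAIP2 -0.10, -0.50 and 0.29. Over the list, 12 of 19 genes lay above 0 for loss of mir-200c in both backgrounds, and 10 of 17 without LCN2 and ICAM1 (58.8%), beside 28.9% of all rows. In set 2 as listed, 7, 9 and 7 of the 19 were above 0, with medians of -0.09, -0.09 and -0.09.

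**Figure D3:**
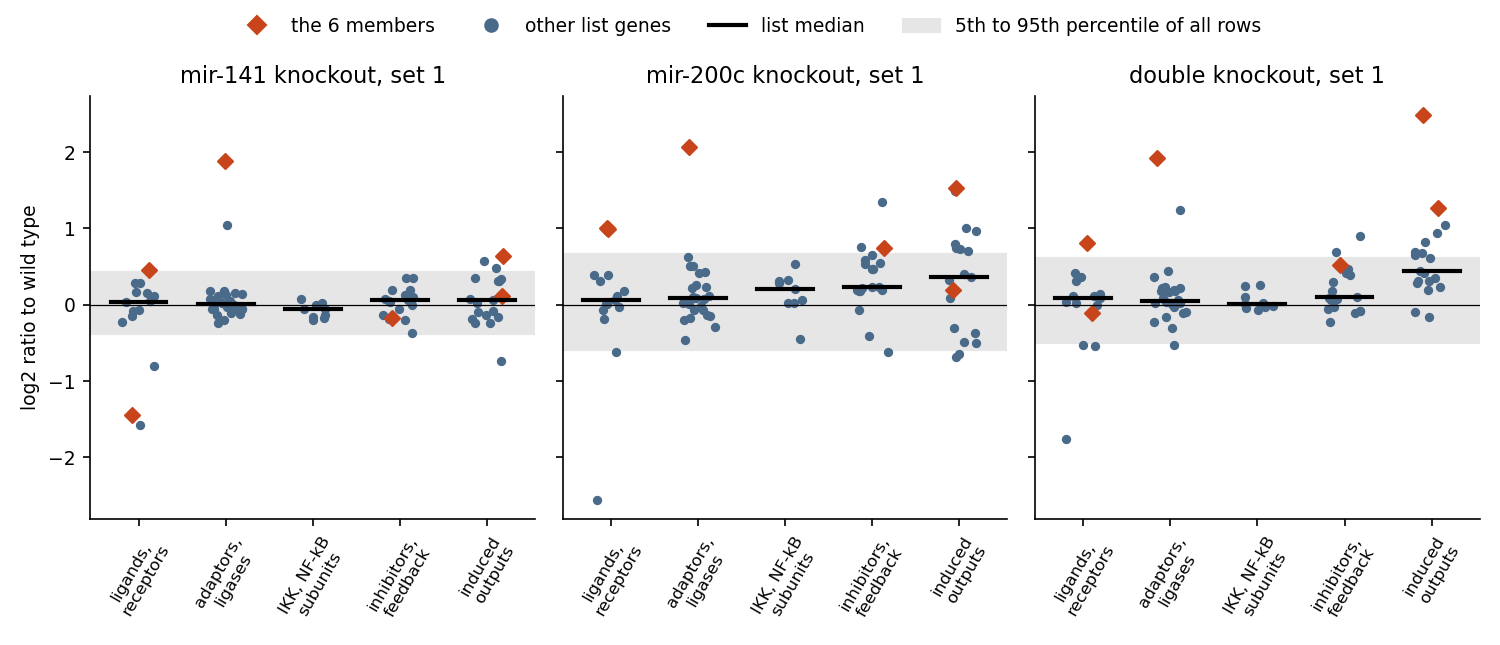
Log2 ratio to the wild type (vertical axis) of each measured gene of the 5 lists, by clone of set 1. Diamonds are TNF, CD40, TRAF6, TNFAIP3, ICAM1 and LCN2, black bars list medians and the grey band holds the central part of all rows, from the 5th to the 95th percentile. The median of induced outputs moves from 0.06 to 0.36 and 0.45 across the panels, and that of the adaptors stays at 0.01, 0.08 and 0.05, with TRAF6 and MALT1 reaching 1.

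**Figure D4:**
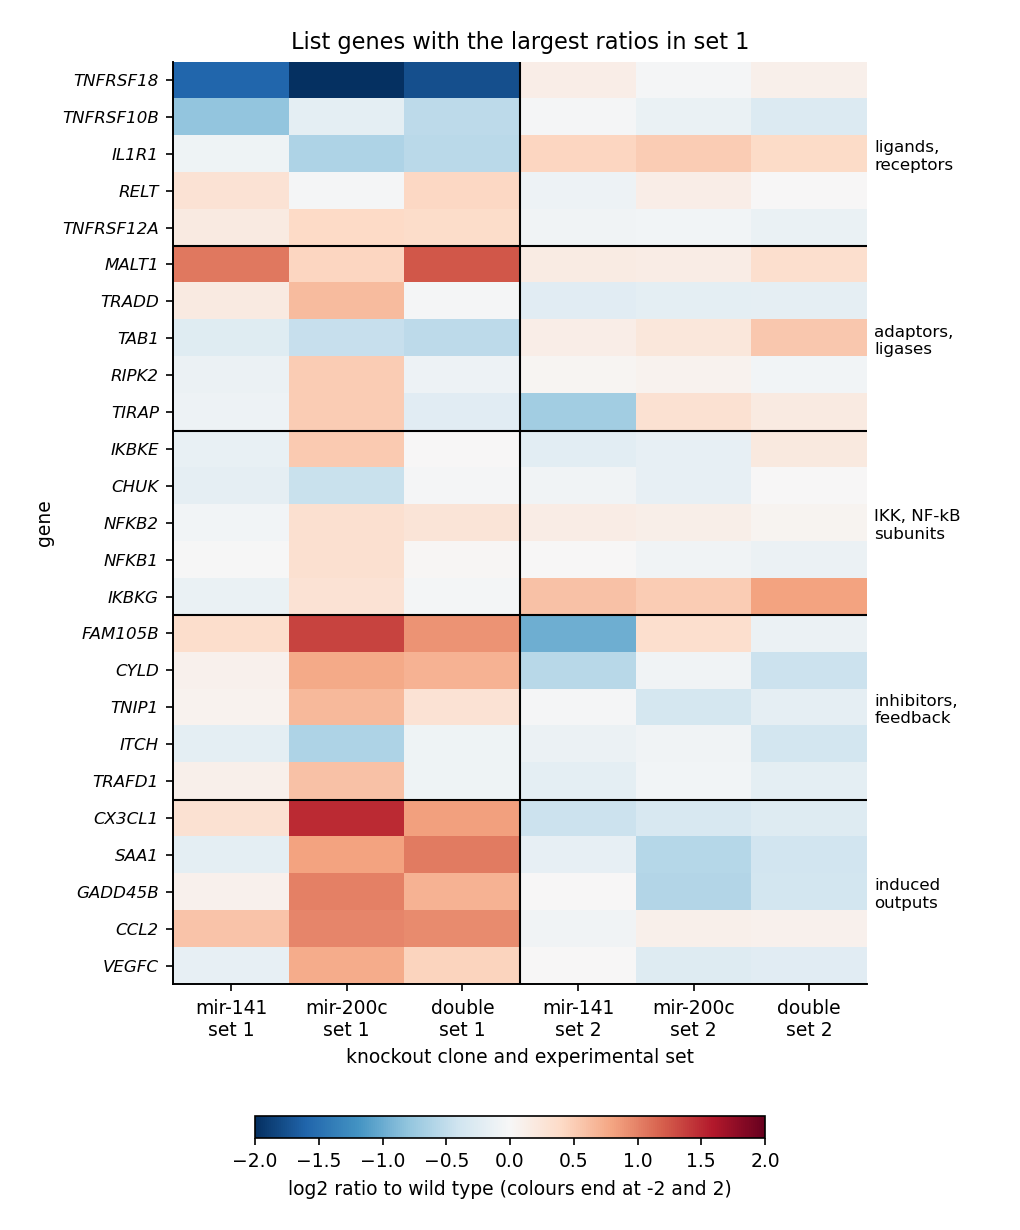
Log2 ratios of the 5 genes per list with the largest absolute ratio in any clone of set 1, members left out, by clone and set. Columns are clones and colours run from blue (below the wild type) to red (above it). In set 1 feedback genes and outputs are mostly red in the mir-200c and double knockout, such as CX3CL1 at 1.49 and 0.82.

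With limma over both sets, 0 of the 88 list genes passed the adjusted threshold in any comparison, and 4, 4, 5, 4, 9 and 1 had an unadjusted p under 0.05 without mir-141, without mir-200c, without both, for each loss in the same order and for the interaction. These were 4.55%, 4.55%, 5.68%, 4.55%, 10.2% and 1.14% of the list genes, beside 2.68%, 5.4%, 6.28%, 5.15%, 8.88% and 1.7% of all rows. Nothing follows from these counts for the lists.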

How the data were processed

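Oligo(dT)-selected RNA of the 8 cultures was sequenced on a HiSeq instrument, per the labels' protocols. TopHat2 and the build GRCh37.p10 were used, per the submitters' processing notes. For the counting tool, the scaling and any filter, nothing was given in the sources used here. As log2 ratios against each set's wild type, 6 columns were deposited by the authors, per the file headers. Columns of other series numbered 0. Without counts, no depth, interval or filter on level could be given.

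All rows were fitted with limma 3.58.1 (R 4.3.3): each wild type was set to 0, the set was a block, and either the 4 genotypes (3 residual degrees of freedom) or both losses additively (4) were the terms. The set is named in the labels and pairs the libraries, since a clone and its reference share it. The script was tested on simulated data. P-values rest on how a genotype's differences vary between sets, moderated over all rows. In the additive fit they also rest on deviations from additivity, and in a set fitted alone only on these.

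Members and lists were chosen with earlier results of these data known. Named were the members, up to 5 other genes per list with the largest set 1 ratio, and the 2 nearest rows per member. Coordinates are from GENCODE release 29 and RefSeq (GRCh38), and none were converted.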

Additional observations from a re-analysis of the deposited data

Results flagged for a closer look

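For LCN2 and TNF, all 3 clones of set 1 lay above their wild type and all 3 clones of set 2, as listed, lay below theirs. The mean over the clones of set 1 was 1.79 higher than that of set 2 for LCN2 and 0.868 higher for TNF, on the log2 scale. The difference was not tested. The 3 clones of a set share 1 wild type library, and 8.16% of all rows had the same arrangement of signs.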

How the results depend on the processing

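Across the fits of both sets, 0 of the 6 genes were called in any alternative. The experimental set pairs the libraries, and with no replicate block the count was 0 genes in each of the 6 comparisons. Since every value is a ratio within its set, that fit does not undo the pairing. The count was also 0 after median centring, scaling by the median absolute deviation and robust moderation. Leaving out 1 library at a time, where the lone sample of a group is assumed to vary like the others, gave 0 to 1 calls for the mir-141 knockout, 0 to 1 for the mir-200c knockout, 0 to 2 for the double knockout and 0 to 1 for the interaction. The calls came without the mir-200c clone of either set or without the wild type of set 2. With set 1 or set 2 alone, an alternative added after seeing the data, 0 genes were called for either loss (587 and 1113 in set 1 and 770 and 1012 in set 2 at an unadjusted p under 0.05, for mir-141 and mir-200c).

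Against the mean of the other 2 clones of the set in place of the wild type, 5 instead of 8 of the 18 values of set 1 lay at or beyond 1. This is another contrast, in which the values of a gene cancel out within a set by construction. A gene above the wild type in all clones of a set therefore has to turn negative in at least 1 of them. Such turns do not show that its ratios to the wild type are unstable. TRAF6 turned to -0.12 in the mir-141 knockout and -0.049 in the double knockout, and LCN2 to -0.036 in the mir-200c knockout, which lies between the other clones. Values that had not reached 1 also changed sign: in the mir-141 knockout LCN2 went from 0.64 to -1.36, TNF from 0.46 to -0.45 and ICAM1 from 0.12 to -0.61, and in the mir-200c knockout ICAM1 went from 0.20 to -0.49. For the pathway lists, 17 values of set 1 lay at or beyond 1 in either direction, 55 at a threshold of 0.5 and 8 at 1.5. Since depth is unknown, ratios of weakly and strongly expressed genes could not be weighted, and the cause of the missing relation between the sets was not tested.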

Other observations

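Of the 88 list genes, 6 lay above 0 in all 6 clones (6.82%) and 3 below 0 in all 6 (3.41%). The shares over all rows were 6.65% and 10.4%. The share above 0 was thus near that of all rows, and nothing follows from it for the lists. Those above were ICAM1, BCL10, IL17RC, IRF1, MALT1 and TNFRSF1A, and those below were IRAK4, ITCH and TNFRSF10B. IRF1, an interferon regulatory factor gene and NF-kB target that the naming rule did not select and that was chosen after its values were seen, had 0.48, 0.70 and 0.68 in clones 23, 11 and 55. Its listed values in clones 10, 29 and 61 were 0.51, 0.42 and 0.60. Its mean in the double knockout was 0.64 ± 0.15 (SE of the fit), with a limma adjusted p of 0.74. TNFRSF1A, the main receptor of TNF, also chosen after its values were seen, had 0.29, 0.39 and 0.00 in clones 23, 11 and 55. The values listed for clones 10, 29 and 61 were 0.59, 0.37 and 0.34.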
